A study of Mus musculus with 10 samples.

Results

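The genes described here code for the receptors of interferons, for the Jak kinases that these receptors carry and for SOCS proteins that switch the signal off. They are Ifngr1, Ifngr2, Ifnar1, Ifnar2, Jak1, Jak2, Tyk2, Socs1, Socs2, and Socs3, chosen by name, and all 10 were found among the 25814 genes of each of the 10 libraries. RNA had been sequenced from mouse cells in 5 groups of 2 libraries. The paper used adult mice, and for keratinocytes also newborn mice, without saying which keratinocytes were sequenced. The keratinocytes were cultured alone or, for 1 d by the paper, together with pre-activated CD8+ T cells, which were washed off before lysis. By the methods, keratinocytes were kept in SFM, while co-cultures held a 4:1 mix of SFM and X-vivo media. Whether the keratinocytes alone had this mix is not given, so effects of medium and of T cells on keratinocytes cannot be told apart. Splenic T cells, enriched with CD8 microbeads, were stimulated with αCD3/CD28 Abs for 1 d and studied without further culture (activated T cells), after 1 d in keratinocyte medium by the labels, a 4:1 mix of SFM and X-vivo media by the methods (mixed medium), or after co-culture with keratinocytes. All 3 T-cell groups had thus received the Abs. The labels give 1 d for the co-culture of the T cells, the design text of the series 1 h. No transgene or knockout is named for these libraries.

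IFN-γ, the type II interferon, binds a receptor made of IFNGR1, the chain that holds the ligand, and IFNGR2. JAK1 sits on IFNGR1 and JAK2 on IFNGR2. Type I interferons, such as IFN-β, use IFNAR1 with TYK2 and IFNAR2 with JAK1. The activated kinases phosphorylate STAT factors, which switch on interferon target genes in keratinocytes and T cells alike. Socs1 and Socs3 are themselves induced by cytokines, and their proteins block the kinases and the receptors, SOCS1 above all those of interferons, SOCS3 those of the IL-6 family. SOCS2 is best known as a brake on growth hormone.

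Libraries held from 12864931 to 18019609 exon reads. The summed level of 10 keratinocyte markers was 14352 to 18981 RPKM in keratinocyte libraries and 10.3 to 108.8 RPKM in T-cell libraries. RPKM values are reads divided by the length of the exons and by the depth of the library, so that levels of different genes can be compared. The keratinocyte libraries were not free of T-cell RNA. The summed level of 9 T-cell markers was 109.9 and 434.6 RPKM in keratinocytes alone and 141.3 and 773.1 RPKM in co-cultured keratinocytes (replicates 1 and 2), compared with 1335 to 2865 RPKM in T cells. Cd8a, which marks the T cells that were added, reached 1.16 RPKM at most in keratinocyte libraries, whereas Cd4 was at 11.4 to 84.5 RPKM. Cd4 was also at 16.8 to 102.3 RPKM in the T-cell libraries. In keratinocyte libraries the sum of 5 myeloid markers was 38.3 to 71.2 RPKM, and that of 2 Langerhans cell markers 53.6 to 131.7 RPKM, all from Epcam, since Cd207 was at 0 in every library. The sums for B cells, melanocytes, fibroblasts, and endothelial cells were each at 20.1 RPKM at most in keratinocytes and 92.5 RPKM at most in T cells. Libraries also differed in their balance of long and short genes. The median log2 deviation, from the mean of all libraries of a cell type, of genes with over 4000 bp of exons minus that of genes under 2000 bp was 0.52 and 0.07 in keratinocytes alone, 0.09 and -0.68 in co-cultured keratinocytes, 0.36 and -0.12 in activated T cells, 0.36 and -0.38 in mixed medium, and 0.20 and -0.46 in co-cultured T cells. The libraries of the last 2 groups, whose labels give no number, are named a and b. Running numbers of the deposited tables, 1 to 8 and 12 to 16, put replicate 1 or library a of every group in one set and replicate 2 or library b in the other. In each group the first set was the higher in the balance of long and short genes. Fits of T cells with this set as a batch term were added after the data were seen, and their values are given beside each result of the 10 genes that they change.

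**Figure D1:**
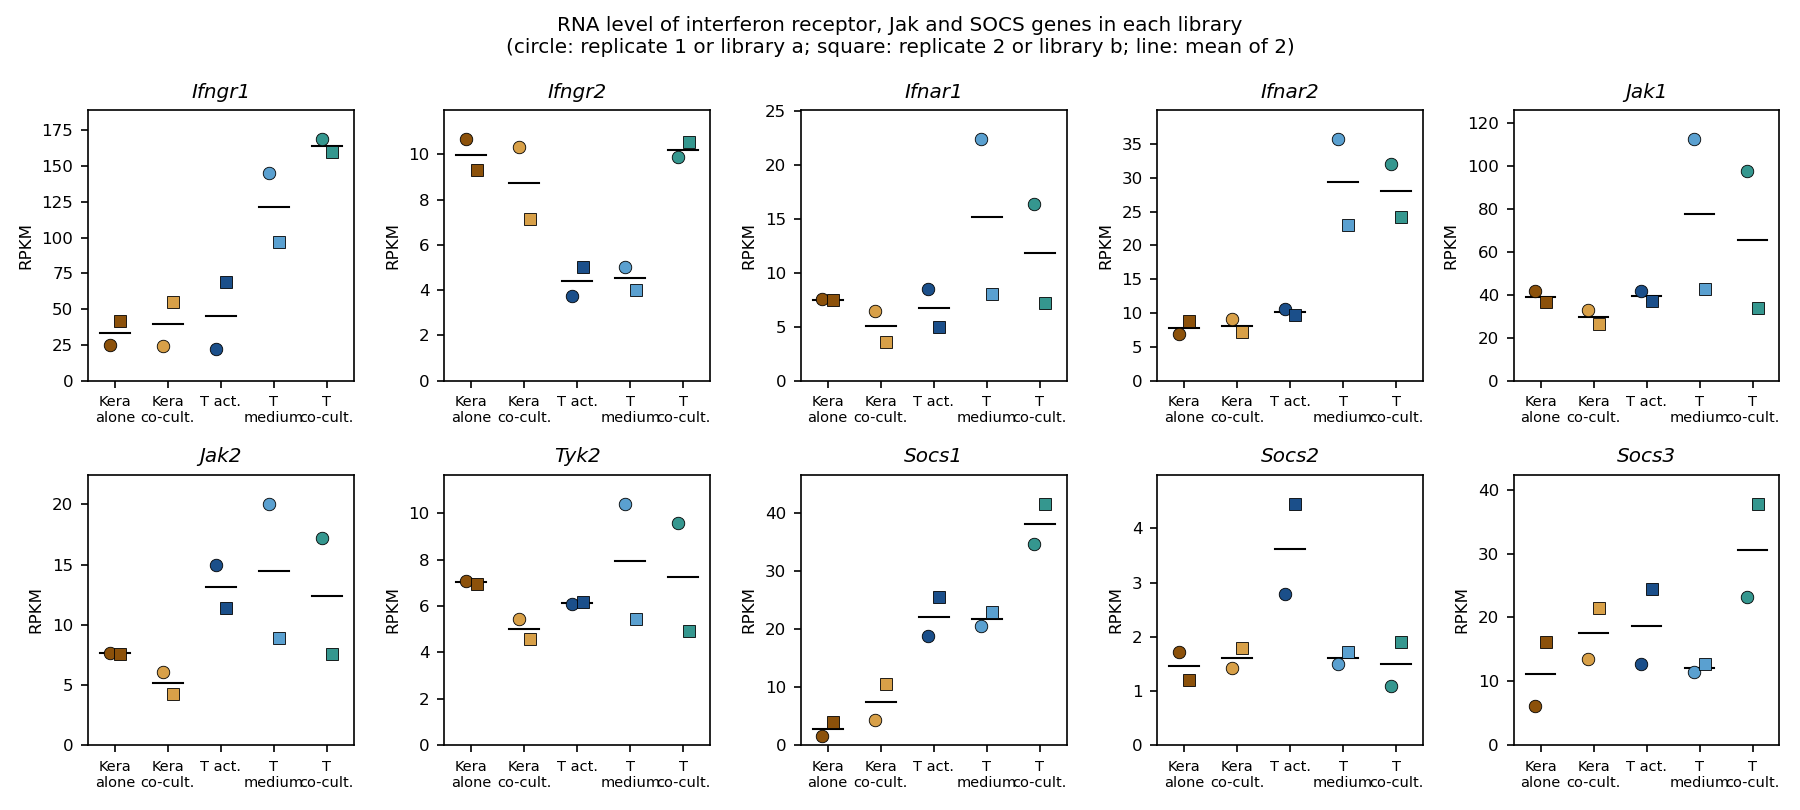
RPKM (linear axis from 0) of the 10 genes in each library of the 5 groups, with circles for replicate 1 or library a, squares for replicate 2 or library b and a line at the mean. Ifngr1 reached 168.7 RPKM in co-cultured T cells, Ifngr2 was low in activated T cells and in mixed medium, Socs1 was highest in co-cultured T cells, and Jak1 differed from 42.8 to 112.5 RPKM within the mixed medium group.

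Ifng, the gene of the type II ligand, was a T-cell RNA of the activated state. It was at 612.6 and 589.2 RPKM in activated T cells, at 5.95 and 7.20 RPKM in mixed medium and at 3.26 and 6.20 RPKM in co-cultured T cells. In keratinocyte libraries it was at 1.26 and 2.63 RPKM without and at 1.36 and 5.92 RPKM with co-culture. Both groups of T cells collected after a further culture thus lay far below the activated cells. Compared with the activated cells, Ifng had a log2 fold change of -6.36 in mixed medium (standard error, SE, 0.49, adjusted p = 0.00345, edgeR's quasi-likelihood test with Benjamini-Hochberg adjustment) and -6.77 in co-culture (SE 0.50, adjusted p = 0.00162). Since medium and time after activation changed together, their parts cannot be told apart. Ifnb1, the gene of IFN-β, had 0 reads in all 10 libraries, where 3 reads, the limit that a count of 0 allows, would be 0.211 to 0.283 RPKM. Of 20 ligand genes other than Ifng, 16 had 0 reads in all libraries and the remaining 4 had 3 reads at most in any library.

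Ifngr1 codes for the ligand-binding chain of the IFN-γ receptor and lies on chromosome 10 of GRCm38 from 19591949 to 19610229, with 10 exons. It was the most abundant of the 4 receptor RNAs in every library. In T cells it was at 22.1 and 68.7 RPKM when activated, at 145.4 and 96.6 RPKM in mixed medium and at 168.7 and 159.8 RPKM after co-culture. Each library of the last 2 groups exceeded both activated libraries, which differed from each other 3.10 fold. The means were 45.4 ± 32.9, 121.0 ± 34.5 and 164.2 ± 6.29 RPKM (SD, n = 2 libraries each), and neither difference passed the test. The log2 fold change was 1.52 in mixed medium (SE 0.52, adjusted p = 0.121) and 2.02 in co-culture (SE 0.53, adjusted p = 0.0502). Without the activated replicate 2, the higher library of its group, the same values were 2.64 and 3.14. Without the activated replicate 1 they were 0.92 and 1.42. With each library of the groups compared left out in turn, the log2 fold change ran from 0.92 to 2.64 in mixed medium and from 1.42 to 3.14 in co-culture. DESeq2 called Ifngr1 in both comparisons, and so did edgeR with the set as a batch term (1.68, adjusted p = 0.0185, and 2.14, adjusted p = 0.00468). Of the markers of other cells, Cd4 and the myeloid sum rose with Ifngr1 in activated T cells. The sums for B cells (29.9 and 31.8 RPKM), endothelial cells (3.31 and 3.32 RPKM), and keratinocytes (25.6 and 26.0 RPKM) differed little there. Cd4 was at 16.8 and 102.3 RPKM in replicates 1 and 2, and the sum of 5 myeloid markers at 18.3 and 78.0 RPKM, whereas it was 44.5 to 61.4 RPKM in the later groups. In mixed medium, where Ifngr1 was lower in library b than in a, Cd4 was at 67.2 and 75.9 RPKM and the myeloid sum at 49.1 and 56.9 RPKM. The part of such cells in the result was not tested. In keratinocytes, Ifngr1 was at 24.9 and 41.5 RPKM alone and at 24.0 and 55.3 RPKM upon co-culture. These groups overlapped, and in both of them replicate 2, the library with more T-cell marker RNA, was the higher.

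Ifngr2, the gene of the signalling chain on which JAK2 sits, is found on chromosome 16 from 91547072 to 91565169, with 9 exons. Its order of levels differed from that of Ifngr1. In T cells it was at 3.75 and 5.03 RPKM when activated and at 5.01 and 4.03 RPKM in mixed medium, and the groups overlapped. In co-cultured T cells it was at 9.89 and 10.5 RPKM, above all 4 other T-cell libraries. This was a log2 fold change of 1.24 from mixed medium (SE 0.39, unadjusted p = 0.0126, adjusted p = 0.867 by edgeR) and of 1.41 from activated T cells (SE 0.39, adjusted p = 0.0565). Neither passed the threshold of 0.05. The difference from activated T cells was called by DESeq2 (adjusted p = 0.00762), by edgeR without the filter on low counts (adjusted p = 0.0350) and with the set as a batch term (1.42, adjusted p = 0.00752). With each library left out in turn the former stayed between 1.08 and 1.37. Keratinocytes alone had 10.7 and 9.31 RPKM and co-cultured keratinocytes 10.3 and 7.14 RPKM, levels that overlapped with those of co-cultured T cells. Krt14 was at 61.6 and 16.8 RPKM in co-cultured T cells and at 1.06 RPKM at most in the other T-cell libraries, compared with 7240 to 11836 RPKM in keratinocytes. Whether this keratinocyte RNA had a part in the Ifngr2 level was not tested. In bulk RNA, more cells of a kind and more RNA per cell cannot be told apart.

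The chains of the IFN-γ receptor stood in different ratios. Ifngr1 RPKM divided by Ifngr2 RPKM was 2.33 and 4.46 in keratinocytes alone, 2.32 and 7.75 in co-cultured keratinocytes, 5.91 and 13.6 in activated T cells, 29.0 and 24.0 in mixed medium and 17.1 and 15.2 in co-cultured T cells. All libraries of mixed medium and co-cultured T cells lay above all keratinocyte libraries, and mixed medium lay above co-culture. In keratinocytes and activated T cells the ratio was higher in replicate 2, the library with less RNA of long genes. Among keratinocytes replicate 2 also had more T-cell marker RNA. In mixed medium and co-cultured T cells library a, with more RNA of long genes, had the higher ratio. The part of these traits was not tested. The ratios of RNA say nothing of the chains on the cell surface. The effect of co-culture on Ifngr2 was lower in keratinocytes than in T cells with a log2 difference of -1.38 (SE 0.42, unadjusted p = 0.0127, adjusted p = 0.412, edgeR interaction term over 8 libraries), which did not pass the threshold.

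**Figure D2:**
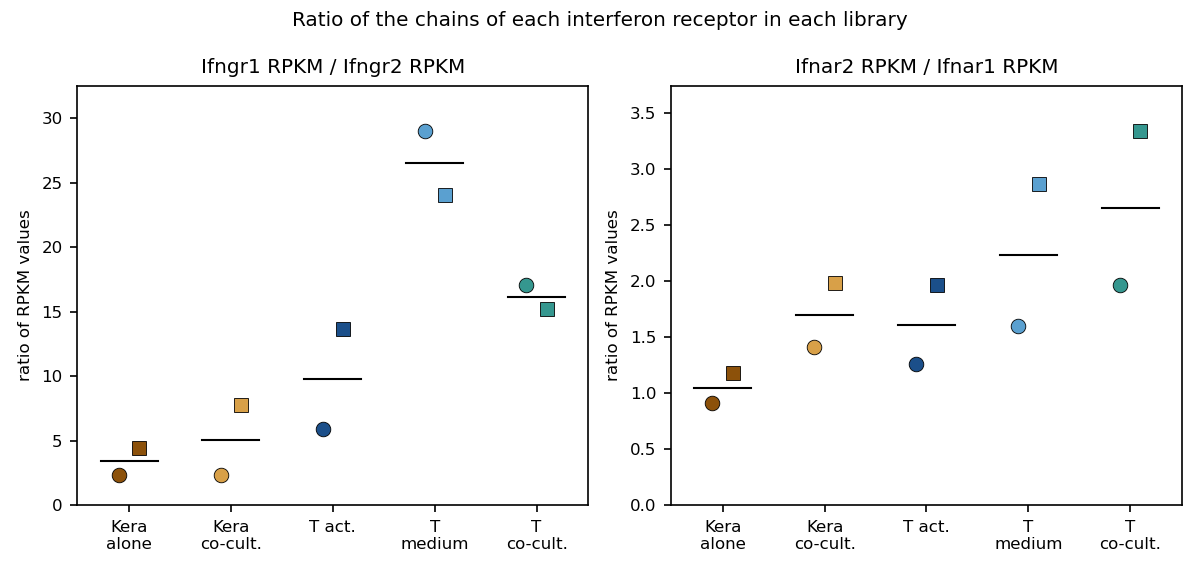
Ratio of Ifngr1 to Ifngr2 (left) and of Ifnar2 to Ifnar1 (right) in RPKM for each library, on linear axes from 0, with circles for replicate 1 or library a, squares for replicate 2 or library b and a line at the mean of the group. The left ratio spans 2.32 to 29.0 and separates T cells in mixed medium from the other groups. The right ratio spans 0.912 to 3.34, with keratinocytes alone below all other libraries. The other groups overlap, except that activated T cells (1.961 at most) lie just below co-cultured T cells (1.963 at least). The right ratio rests on all exon reads, of which 36.1% to 64.1% mapped uniquely for Ifnar2.

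Ifnar2, a chain of the type I receptor, was the member whose difference passed the test within T cells without a batch term. It lies on chromosome 16 from 91372783 to 91405589, with 17 exons, in the same cluster of receptor genes as Ifnar1 (91485238 to 91507441, 19 exons) and Ifngr2. Activated T cells had 10.6 and 9.72 RPKM, T cells in mixed medium 35.7 and 22.9 RPKM, and co-cultured T cells 32.0 and 24.1 RPKM. Every library of the last 2 groups was more than the higher activated library. The log2 fold change was 1.66 in mixed medium (SE 0.32, adjusted p = 0.0270) and 1.65 in co-culture (SE 0.32, adjusted p = 0.0193). Both comparisons share the activated libraries. Mixed medium and co-culture were not told apart, with a log2 difference of -0.01 (SE 0.31). Only 36.1% to 64.1% of its exon reads mapped uniquely in the deposited tables. In GENCODE M21, 315 of 3329 exon bases of Ifnar2 are also exon bases of Gm21970 on the same strand, and whether these account for the reads that did not map uniquely was not tested. On uniquely mapped reads, of which 214 and 220 were counted in activated T cells, 688 and 484 in mixed medium and 622 and 570 in co-culture, the log2 fold change in mixed medium was 1.50 and the adjusted p 0.0523. Whichever library of the groups compared was left out, the Ifnar2 call was lost in either comparison, with adjusted p values of 0.0743 to 0.137 in mixed medium and 0.0534 to 0.0998 in co-culture, while the log2 fold changes stayed between 1.43 and 1.89. With the set as a batch term the adjusted p values were 0.00117 and 0.000821. Reads on introns of Ifnar2 numbered 19 and 46 in activated T cells, 111 and 78 in mixed medium, and 66 and 68 in co-culture.

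Because it is the called receptor gene, the bases upstream of its RefSeq start are shown, from chr16:91372533-91372782 of GRCm38.p6 on the plus strand, 5′ to 3′. The capitals mark a match to TTCNNNGAA, the GAS pattern of STAT dimers, which reads the same on both strands.
Ifnar2: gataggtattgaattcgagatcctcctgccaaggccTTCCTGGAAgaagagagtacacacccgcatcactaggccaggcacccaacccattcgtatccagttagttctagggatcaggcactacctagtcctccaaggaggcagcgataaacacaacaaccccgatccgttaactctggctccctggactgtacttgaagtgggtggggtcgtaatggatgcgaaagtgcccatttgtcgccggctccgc
Of the 300-base promoters of 32851 RefSeq genes, 8.30% held this pattern, and 3 of the 9 members found in that table did. A match of letters does not show that a factor is bound.

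Ifnar1 was less steady among replicates. In T cells it was at 8.45 and 4.95 RPKM when activated, at 22.4 and 8.01 RPKM in mixed medium and at 16.3 and 7.23 RPKM after co-culture, and library b of mixed medium had 0.358 times the level of library a. The log2 fold changes from activated T cells, 1.31 in mixed medium (SE 0.54, adjusted p = 0.185) and 0.99 in co-culture (SE 0.54, adjusted p = 0.274), did not pass the test. They were called with the set as a batch term, at 1.20 (adjusted p = 0.0102) and 0.94 (adjusted p = 0.0260), and the former also without the filter on low counts (adjusted p = 0.0315). The ratio of Ifnar2 to Ifnar1 in RPKM ran from 1.25 to 3.34 in T cells and from 0.912 to 1.98 in keratinocytes. Keratinocytes alone, at 0.912 and 1.17, lay below all other libraries. This order was not kept on uniquely mapped reads. Keratinocytes alone had 279 and 225 of these on Ifnar2 beside 558 and 492 on Ifnar1, and activated replicate 1 had 214 beside 548. In each group the RPKM ratio was higher in replicate 2 or library b. In keratinocytes Ifnar1 was at 7.55 and 7.45 RPKM alone and at 6.45 and 3.61 RPKM upon co-culture, Ifnar2 at 6.88 and 8.75 RPKM and at 9.09 and 7.16 RPKM. The Ifnar2 groups overlapped. Those of Ifnar1 did not, but its log2 fold change of -0.52 (SE 0.37, adjusted p = 0.680) did not pass the test.

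Among the kinases, Jak1, which serves both types of interferon receptors and many other cytokine receptors, was the most abundant in every library. It lies on chromosome 4 from 101152367 to 101265282 (28 exons, 4966 bp in sum). Its level was 41.7 and 37.3 RPKM in activated T cells, 112.5 and 42.8 RPKM after mixed medium, 97.7 and 33.7 RPKM in co-cultured T cells, 41.6 and 36.8 RPKM in keratinocytes alone and 33.2 and 26.3 RPKM in co-cultured keratinocytes. In mixed medium and in co-culture the libraries a were far above the libraries b, and one value of co-culture was below both activated libraries. Jak2 (chromosome 19, 29251828 to 29313080, 25 exons), the partner of IFNGR2, was at 15.0 and 11.4, 20.1 and 8.88, and 17.2 and 7.57 RPKM in the same T-cell groups and at 7.64 and 7.60 RPKM in keratinocytes alone. In co-cultured keratinocytes it was at 6.10 and 4.22 RPKM. Tyk2 (chromosome 9, 21104068 to 21131243, 30 exons), the partner of IFNAR1, ranged from 4.58 to 10.4 RPKM over all libraries. In T cells 0 of these 3 kinases passed the test in any comparison, or had an unadjusted p under 0.05. The largest log2 fold change was that of Jak1 in mixed medium, 1.09 (SE 0.53, adjusted p = 0.246), where library a alone stood apart. Jak1 was called there without the filter on low counts (1.09, adjusted p = 0.0376) but not with the set as a batch term (0.92, adjusted p = 0.0523).

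In keratinocytes all 3 kinases were lower in both co-cultured libraries than in both libraries alone. The log2 fold changes were -0.33 for Jak1 (SE 0.29), -0.50 for Jak2 (SE 0.31), and -0.42 for Tyk2 (SE 0.28), with adjusted p values of 0.664 to 0.718. None passed the test, and 24.3% of all genes tested were lower without overlap in this comparison. These genes have exons of 4966 to 5562 bp in sum, and Ifnar1, which was lower too, has 3909 bp. In most groups their levels moved with the balance of long and short genes given above. The co-cultured replicate 2, at -0.68 the library with the least RNA of long genes, had the lowest level of all 4 genes among keratinocytes, and in mixed medium and co-cultured T cells the libraries a (0.36 and 0.20) were above b (-0.38 and -0.46) for all 4. In activated T cells (0.36 and -0.12) replicate 1 was the higher for Jak1, Jak2, and Ifnar1, whereas Tyk2 was at 6.08 and 6.19 RPKM. When the replicate number was taken as a block and the gene length trend was removed, the log2 fold changes upon co-culture of keratinocytes were -0.08 for Jak1, -0.25 for Jak2, and -0.08 for Tyk2, nearer to 0 than without it, and -0.49 for Ifnar1.

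**Figure D3:**
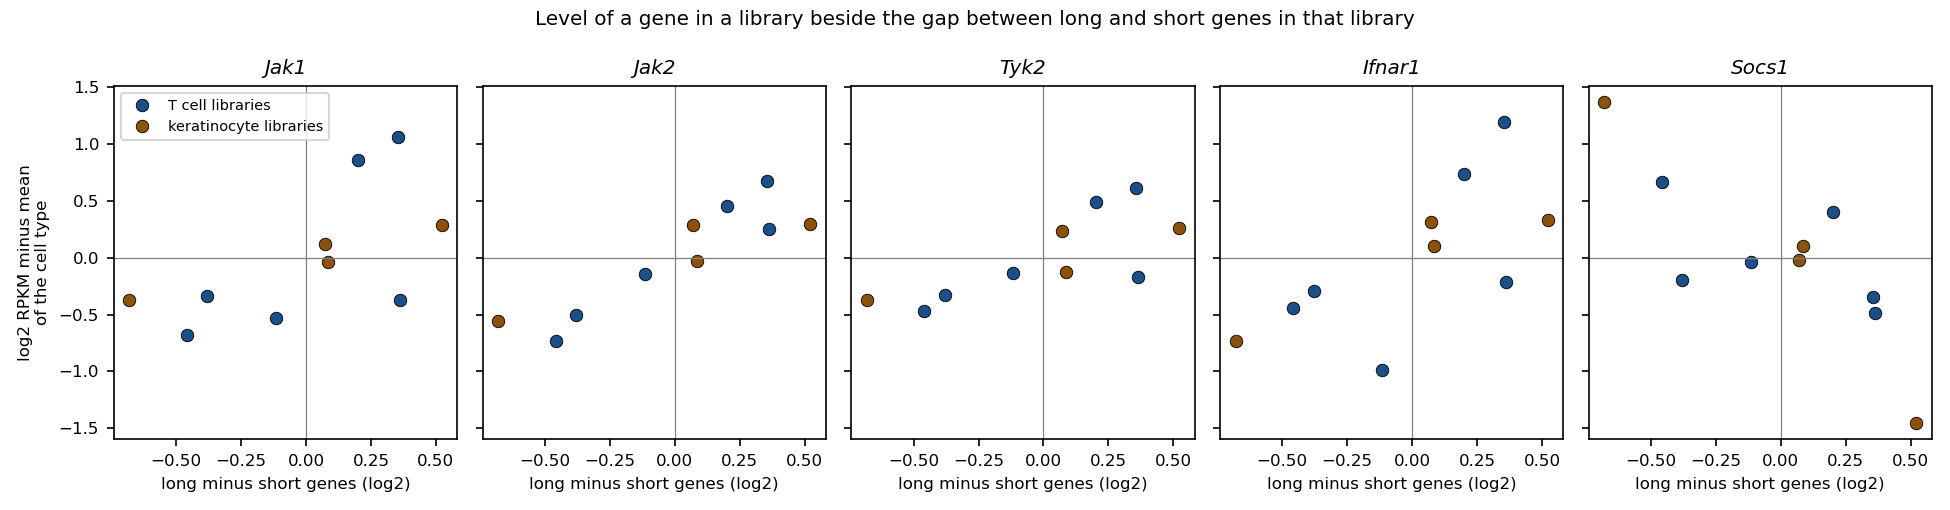
For Jak1, Jak2, Tyk2, Ifnar1, and Socs1, the log2 RPKM of each library minus the mean of its cell type (vertical axis) beside the log2 difference of long and short genes in that library (horizontal axis), brown for the 4 keratinocyte and blue for the 6 T-cell libraries. The keratinocyte library at -0.68 on the horizontal axis is the lowest one for the kinases and Ifnar1 and the highest one for Socs1.

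Socs1, the main brake on interferon signalling, showed the highest ratio between libraries of all members, with levels from 1.49 to 41.7 RPKM. It lies on chromosome 16 from 10782240 to 10785536 on the minus strand, with 3 exons. In keratinocytes it was at 1.49 and 4.02 RPKM (82 and 199 reads) alone and at 4.37 and 10.5 RPKM (193 and 503 reads) upon co-culture. Both co-cultured libraries were above both others, though replicate 1 in co-culture exceeded replicate 2 alone by little. The means were 2.75 ± 1.79 and 7.43 ± 4.33 RPKM (SD, n = 2 each). The log2 fold change of 1.52 did not pass edgeR's test (SE 0.73, unadjusted p = 0.0936, adjusted p = 0.658), and 19.8% of all genes were higher without overlap. Without the co-cultured replicate 2 it was 0.65, and without the replicate 2 of keratinocytes alone 2.46. Within each group T-cell markers moved with it, and at its extremes the balance of long and short genes moved against it. Across groups the markers did not follow it. Co-cultured replicate 1 had 141.3 RPKM of them and replicate 2 alone 434.6 RPKM, with Socs1 at 4.37 and 4.02 RPKM. Replicate 2 of both groups had more of the marker RNA and more Socs1, and the lowest and the highest Socs1 level belonged to the libraries at 0.52 and -0.68 in the balance of long and short genes. Between libraries of the same number, Socs1 was 2.94 and 2.61 fold and the sum of the T-cell markers 1.29 and 1.78 fold the level of keratinocytes alone. In the fit with the replicate block and the length trend removed the log2 fold change was 1.46 (adjusted p = 0.0482). The part of the T-cell RNA was not tested.

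In T cells Socs1 was at 18.8 and 25.6 RPKM when activated, at 20.6 and 22.9 RPKM in mixed medium and at 34.7 and 41.7 RPKM after co-culture. The first 2 groups overlapped, and both co-cultured libraries were above all others. From mixed medium to co-culture the log2 fold change was 0.87 (SE 0.34, unadjusted p = 0.0353, adjusted p = 1.0 by edgeR), from activated T cells to co-culture 0.98 (SE 0.34, adjusted p = 0.107). Neither passed the test. With the set as a batch term the latter was called (0.99, adjusted p = 0.00830), while the former was not (0.85, adjusted p = 0.269). The keratinocyte and T-cell effects of co-culture differed by 0.66 on the log2 scale with an SE of 0.86. This did not pass the test, and its sign was not settled by these libraries.

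Socs3 (chromosome 11, 117966079 to 117970047, minus strand, 2 exons), the brake on IL-6 type cytokines, was the member with the largest log2 fold change from mixed medium to co-culture. Its level was 11.4 and 12.7 RPKM after mixed medium, 23.3 and 37.9 RPKM in co-cultured T cells and 12.7 and 24.5 RPKM in activated T cells. Both co-cultured libraries were above both of mixed medium, whereas the activated ones overlapped with co-culture. The log2 fold change from mixed medium was 1.41 (SE 0.47, unadjusted p = 0.0164, adjusted p = 0.946 by edgeR), and 0.90 without the co-cultured library b. With the set as a batch term it was 1.34 (adjusted p = 0.0897), and the difference between co-culture and activated T cells was called at 0.94 (adjusted p = 0.0243). In keratinocytes Socs3 was at 6.07 and 16.1 RPKM alone and at 13.5 and 21.5 RPKM upon co-culture, groups that overlapped (log2 fold change 0.73, SE 0.60).

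Socs2 (chromosome 10, 95385362 to 95417180, 16 exons) was the lowest SOCS member in T cells and did not share this pattern. It was at 2.78 and 4.46 RPKM in activated T cells, at 1.49 and 1.72 RPKM in mixed medium and at 1.10 and 1.90 RPKM after co-culture, with 109 to 419 reads per library over all groups. Both later groups were below the activated one. The log2 fold changes of -1.03 (SE 0.50, adjusted p = 0.244) and -1.07 (SE 0.50, adjusted p = 0.204) did not pass the test. With the set as a batch term they were -0.98 (adjusted p = 0.0575) and -1.09 (adjusted p = 0.0348). Cish, another SOCS family gene and a target of IL-2 signals, fell from 45.3 and 46.8 RPKM to 8.82 and 14.7 RPKM in mixed medium (log2 fold change -1.80, SE 0.38, adjusted p = 0.0346).

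Sequences upstream of the RefSeq starts of Socs1 and Socs3 are shown. Of the SOCS genes, these had the higher mean in both co-cultured groups than in keratinocytes alone and mixed medium, and both hold a match to a pattern. Ifngr1, whose means had the same order, held no match and is not shown. The sequences are chr16:10785537-10785786 and chr11:117969457-117969616 of GRCm38.p6, both on the minus strand and written 5′ to 3′ from RefSeq. The stretch of Socs3 lies inside the bounds of the gene given above, whose start is further upstream than the RefSeq start. It stops short of the RefSeq start, since the rest of the window overlaps an annotated exon. Positions of matches are counted from the RefSeq starts. Capitals mark matches to the core of the interferon-stimulated response element (ISRE), GAAA, any 2 bases and GAAA again, in Socs1 and to TTCNNNGAA in Socs3.
Socs1: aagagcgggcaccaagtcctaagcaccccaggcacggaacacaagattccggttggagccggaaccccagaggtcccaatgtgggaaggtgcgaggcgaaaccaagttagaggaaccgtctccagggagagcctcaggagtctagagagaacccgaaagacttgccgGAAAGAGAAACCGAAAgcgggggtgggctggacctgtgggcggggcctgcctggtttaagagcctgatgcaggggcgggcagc
Socs3: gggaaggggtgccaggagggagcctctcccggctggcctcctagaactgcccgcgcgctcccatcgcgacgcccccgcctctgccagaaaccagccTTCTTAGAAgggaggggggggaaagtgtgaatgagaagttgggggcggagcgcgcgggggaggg
In Socs1 2 matches overlap, GAAAGAGAAA from base -83 to -74 and GAAACCGAAA from -77 to -68 before the start, and the match of Socs3 lies from -154 to -146. On either strand the ISRE core was found in 3.44% of all promoters of this length and in 1 of the 9 members with a promoter. The table has no entry for Socs2.

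**Figure D4:**
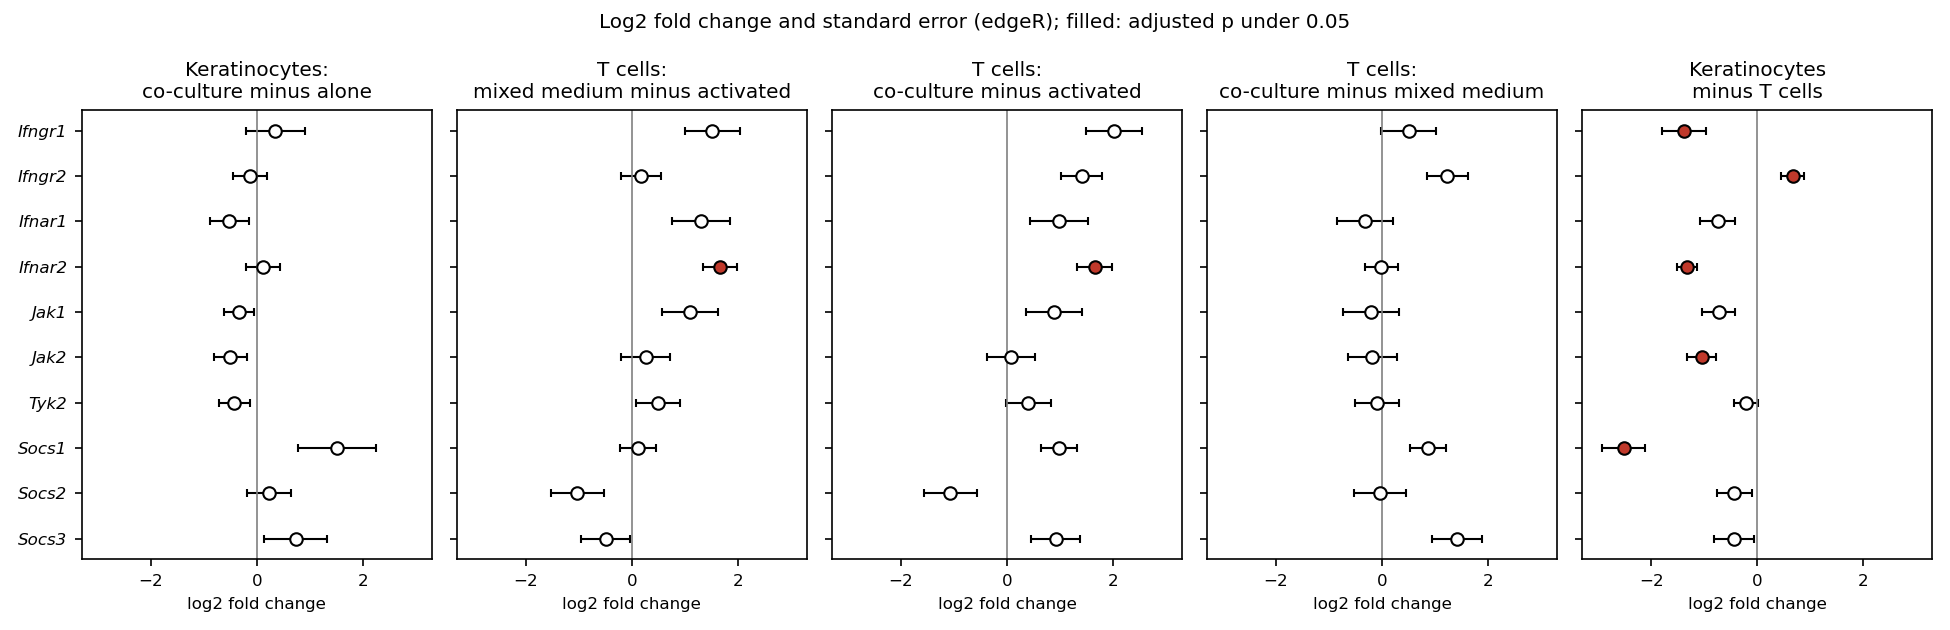
Log2 fold changes (points) with standard errors (bars) of the 10 genes from edgeR in 5 comparisons, filled red where the adjusted p was under 0.05. Ifnar2 is filled in both comparisons with activated T cells, at 1.66 and 1.65, and 5 genes are filled between keratinocytes and T cells.

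Across comparisons few members passed the test. Upon co-culture of keratinocytes 0 of 10 members were called, beside 0.0% of 12515 genes tested, and 0 members had an unadjusted p under 0.05, beside 3.08% (higher) and 4.12% (lower) of all genes, while DESeq2 called 0 members and 186 genes in all. In mixed medium 1 of 10 members was called, beside 6.54% of 11863 genes, and in co-cultured compared with activated T cells 1 of 10, beside 10.3%. Co-cultured T cells compared with mixed medium gave 0 calls, beside 0.261% of all genes, and 3 members, Ifngr2, Socs1, and Socs3, with an unadjusted p under 0.05, all higher, beside 2.7% of all genes. The interaction gave 0 calls, beside 0.576%. With the set of tables as a batch term, 3 members were called in mixed medium (Ifngr1, Ifnar1, and Ifnar2), beside 26.0% of all genes, and 7 in co-culture compared with activated T cells (all but the kinases), beside 30.9%. Between co-culture and mixed medium that fit called 0 members, beside 0.548%. All 10 members had passed the filter on low counts in each comparison. The median log2 fold change of the members was -0.0074 in keratinocytes, 0.38 in mixed medium and 0.95 in co-culture compared with activated T cells, and -0.02 in co-culture compared with mixed medium, while that of all genes lay between -0.015 and 0.023.

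Keratinocytes and T cells differed in 5 of 10 members, beside 49.3% of 13394 genes, in a fit of all 10 libraries, with 1 member higher in keratinocytes, beside 30.6%, and 4 lower, beside 18.7%. Socs1, Ifngr1, Ifnar2, and Jak2 were lower in keratinocytes, with log2 fold changes of -2.52 (SE 0.41, adjusted p = 0.00113), -1.38 (SE 0.41, adjusted p = 0.0219), -1.32 (SE 0.19, adjusted p = 0.000627), and -1.04 (SE 0.27, adjusted p = 0.0123). Ifngr2 was higher by 0.67 (SE 0.22, adjusted p = 0.0301). For Socs1 and Ifnar2 all keratinocyte libraries lay below all T-cell libraries in RPKM, as for 11.7% of all genes. There were 0 members that lay above without overlap, beside 21.0%. For Ifnar2 this separation rests on all exon reads. Of its uniquely mapped reads, not scaled to depth, keratinocyte libraries had 180 to 279 and activated T cells 214 and 220, which overlap. The calls of Socs1, Ifnar2, and Jak2 were kept without any single library. That of Ifngr1 was lost without replicate 1 of either keratinocyte group (adjusted p = 0.0802 and 0.0578), and that of Ifngr2 in 7 of 10 such fits. Ifnar1, Jak1, Tyk2, Socs2, and Socs3 were not called, with log2 fold changes from -0.75 to -0.21. With the set as a batch term 8 of 10 members were called, beside 58.9% of all genes, with Ifnar1 (-0.68, adjusted p = 0.0229), Jak1 (-0.67, adjusted p = 0.0363), and Socs3 (-0.49, adjusted p = 0.0491) besides the 5 genes above. T-cell RNA was found in keratinocyte libraries, as given above, and its part in these differences was not tested.

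Libraries of both groups did not overlap for 3 higher and 2 lower members in mixed medium compared with activated T cells, beside 22.1% and 32.5% of all genes. These were 4 and 1 in co-culture compared with activated T cells, beside 23.6% and 33.9%, and 4 and 0 in co-culture compared with mixed medium, beside 14.2% and 13.1%. In keratinocytes they were 1 and 4, beside the 19.8% and 24.3% given above.

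The full order of the 5 groups could be told for 0 of 10 members, beside 2.01% of all genes. Of 40 pairs of neighbours in the order of mean levels, 26 overlapped (65.0%), beside 66.7% over all genes. For Ifngr1, co-cultured T cells were above mixed medium and mixed medium above activated T cells without overlap. For Socs1, co-cultured T cells came first, activated T cells and mixed medium overlapped, and co-cultured keratinocytes were above keratinocytes alone.

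The remaining genes of the pathway were counted from lists. Among 24 interferon target genes, 21 were tested in keratinocytes and all 21 had a positive log2 fold change upon co-culture, with a median of 2.97, compared with 0.02 for all genes. Of them 18 had an unadjusted p under 0.05, beside 3.08% of all genes (higher), and 0 an adjusted one. Gbp2, a guanylate-binding protein gene, was at 2.74 and 6.47 RPKM alone and at 579.0 and 203.1 RPKM upon co-culture (log2 fold change 6.43, SE 0.84, adjusted p = 0.435). Gbp3 of the same family was at 0.708 and 1.98 and at 146.6 and 55.1 RPKM (6.25, SE 0.85), and Iigp1, an immunity-related GTPase gene, at 0.287 and 2.26 and at 41.1 and 20.5 RPKM (4.62, SE 1.08). In these target genes the co-cultured libraries were thus many times above the others, in contrast to receptors and kinases of the same libraries. The list was chosen with results of these data known, so that its direction is no independent evidence. In T cells, 0 of 21 target genes passed the test between co-culture and mixed medium (median 0.20), beside 0.261% of all genes. The difference of both co-culture effects passed it for Gbp3 (6.50, SE 0.88, adjusted p = 0.0290) and Irf1, a transcription factor gene (3.73, SE 0.54, adjusted p = 0.0364).

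In T cells after a further culture, Il2ra, the gene of the high-affinity IL-2 receptor chain, fell from 105.3 and 67.0 to 8.89 and 6.98 RPKM in mixed medium (log2 fold change -3.29, SE 0.34, adjusted p = 0.00991) and to 11.4 and 10.1 RPKM in co-culture (-2.80, SE 0.33, adjusted p = 0.00540). Irf8, a transcription factor gene, fell from 167.5 and 94.5 to 27.7 and 25.7 RPKM in mixed medium (-2.14, SE 0.34). Psmb9, a subunit of the immunoproteasome, rose from 63.8 and 79.2 to 194.7 and 241.6 RPKM (1.76, SE 0.33, adjusted p = 0.0243). In co-culture Psmb9 (1.75, adjusted p = 0.0170) and the peptide transporter gene Tap1 (1.98, SE 0.30, adjusted p = 0.00934) were higher and Irf8 lower (-1.71, adjusted p = 0.0199). Of 20 other cytokine receptor genes tested, 0 rose and 1 fell in mixed medium and 1 rose and 1 fell in co-culture. Of 9 other kinase and STAT genes and 13 other inhibitors, 0 were called in either, and of 5 other SOCS family genes 1, Cish, was called in mixed medium. Over all genes tested, 6.54% were called in mixed medium and 10.3% in co-culture.

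Between co-culture and mixed medium 0 genes of these lists passed edgeR's test, beside 0.261% of all genes. At an unadjusted p under 0.05, 2 receptor genes, 1 SOCS family gene, and 1 inhibitor were higher, beside 2.7% of all genes. The largest differences without overlap were those of Il12rb2, a chain of the IL-12 receptor (10.1 and 3.09 against 23.5 and 17.5 RPKM in co-culture, log2 fold change 1.71, SE 0.62), of Cish (19.5 and 23.3 RPKM in co-culture, 0.90, SE 0.37) and of Usp18, an inhibitor of IFNAR signals (7.94 and 8.80 against 15.2 and 14.3 RPKM, 0.86, SE 0.35), each with an adjusted p of 1.0. Between keratinocytes and T cells, Il12rb2 was called lower in keratinocytes, at 0.0555 RPKM at most compared with 3.09 to 23.5 RPKM (adjusted p = 2.8e-05). Irf8 (log2 fold change -4.12), Gbp5 (-3.49), Ifng (-3.29), and Stat4 (-3.15, adjusted p = 0.00144) were called lower as well. Of these, Ifng overlapped between the cell types. It was at 5.92 RPKM in replicate 2 of co-cultured keratinocytes and at 3.26 RPKM in library a of co-cultured T cells.

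Among 8744 genes whose mean reached 5 RPKM in any group, the pattern of Usp18 was the most like that of Socs1 over the 10 libraries (Pearson's r = 0.986 of log2(RPKM + 1)), followed by Tiprl (0.983) and Armc10 (0.982). Usp18 was at 0.833 and 2.28 RPKM in keratinocytes alone, at 2.77 and 4.56 RPKM in co-cultured keratinocytes and at 11.0 and 9.74 RPKM in activated T cells. For Socs2 these genes were Ube2v2 (0.934), Alkbh2 (0.931), and Hilpda (0.930), and for Socs3 Uhrf2 (0.878), Dpm1 (0.856), and Bloc1s3 (0.838). These 10 libraries share 2 cell types, their depth and their balance of long and short genes, and the values describe them only.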

How the data were processed

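RNA of 10 libraries was sequenced as single-end reads and mapped to GRCm38 with the CLC Genomics Workbench by the authors. The authors deposited for each gene of a library the counts of exon reads, not normalized, with counts of uniquely mapped and intron reads. The authors also deposited RPKM values, scaled to exon length and mapped reads, which were used for levels, ratios, and ranges. The annotation release and the handling of strand are not given in the sources used here. Groups came from the labels.

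Differences were computed from the counts with the quasi-likelihood test of edgeR 4.0.16 (R 4.3.3), after filterByExpr and TMM, over all genes tested, with Benjamini-Hochberg adjustment and a threshold of 0.05. A standard error was taken as the log2 fold change over the root of its F value. The 4 keratinocyte libraries, the 6 T-cell libraries, 8 libraries for the interaction, and all 10 for the cell types were fitted apart. The scripts were tested on simulated data. The fits were repeated with DESeq2 1.42.0, with limma 3.58.1 on log2 RPKM values (pseudocount 1 or 0.1), with library sizes instead of TMM, without the filter, on uniquely mapped reads, with other sets of libraries, with the replicate number as a block, alone or with the length trend removed, and without each library. After the data were seen, fits with T cells were also repeated with 2 sets of libraries, split at the widest gap between the running numbers of the deposited tables, as a batch term. This pairing comes from these numbers and not from the labels.

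The members and gene lists were chosen with earlier results of these data known. Named besides the members are Ifng and Ifnb1, for each comparison up to 5 called genes of the pathway lists with the largest log2 fold change and a mean of 5 or more RPKM (where none was called, up to 3 without overlap of the groups), and the 3 genes most like each SOCS member. Markers that move with a result are named as well. The design text speaks of 2 parallel experiments but not of separate animals, so that p-values measure the spread between these libraries only. The limit of 3 reads for a count of 0 covers counting error only. Promoters come from RefSeq, and Python 3.11.15 with matplotlib 3.10.9 drew the figures.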

Additional observations from a re-analysis of the deposited data

How the results depend on the processing

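Calls of members in keratinocytes upon co-culture stayed at 0 with every library left out, while those of all genes, 0 in the reported fit, ran from 0 to 1164. DESeq2 called 186 genes there and no filter on low counts 11. With the replicate number as a block, which labels do not tie to a shared day or animal, 2 genes and 0 members were called (Socs1 1.54, adjusted p = 0.138). With the replicate block and the length trend removed, 332 genes and 1 member, Socs1, were called. Libraries of the same number deviated together (Pearson's r = 0.558 over 12515 genes, 2 pairs). The block changed no other member call. In mixed medium and co-cultured T cells the labels give no number, so the set of running numbers of the tables served as a batch term instead, an alternative chosen after seeing the data. T-cell libraries of the same set deviated together (r = 0.245 to 0.356 over 11863 genes, 3 pairs of groups). With this term 3089 genes and 3 members were called in mixed medium, 3662 and 7 in co-culture compared with activated T cells, 65 and 0 in co-culture compared with mixed medium, 109 and 0 in the interaction and 7895 and 8 between the cell types.

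In mixed medium compared with activated T cells, 776 genes were called, with DESeq2 1947, without filter 1945 and with a library left out 24 to 594, and members numbered 2 with DESeq2, 4 without filter, 0 on uniquely mapped reads and 0 to 1 with a library left out. In co-culture compared with activated T cells, 1222 genes were called, with DESeq2 2368, without filter 2425 and with a library left out 266 to 1069. Members numbered 3 with DESeq2, 2 with limma at either pseudocount, 3 without filter, 2 on uniquely mapped reads and 0 to 1 with a library left out. Co-culture compared with mixed medium gave 31 genes, with DESeq2 87, with limma 99 (pseudocount 1) and 107 (0.1), without filter 141 and with a library left out 16 to 52. The interaction gave 76 genes, with DESeq2 353, without filter 205 and with a library left out 21 to 105. Between the cell types 3 to 6 members were called with a library left out.

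The sign turned in differences that were not called. Socs1 in mixed medium was -0.011 by limma at either pseudocount. Jak2 in co-culture compared with activated T cells was -0.064 with library size, -0.013 with the batch term, and -0.17 and -0.19 by limma. Ifnar2 in co-culture compared with mixed medium was 0.23 on uniquely mapped reads and 0.0012 with the batch term. With each library left out, log2 fold changes in keratinocytes ran from -0.49 to 0.86 for Ifngr1, -0.36 to 0.035 for Ifngr2, -0.079 to 0.33 for Ifnar2, and -0.045 to 0.47 for Socs2. In mixed medium they ran from -0.047 to 0.46 for Ifngr2, -0.31 to 0.69 for Jak2, -0.11 to 0.42 for Socs1, and -0.90 to 0.13 for Socs3, and in co-culture compared with activated T cells from -0.50 to 0.48 for Jak2 and -0.029 to 0.74 for Tyk2. In co-culture compared with mixed medium they ran from -0.89 to 0.47 for Ifnar1, -0.24 to 0.23 for Ifnar2, -1.03 to 0.52 for Jak1, -0.76 to 0.39 for Jak2, -0.52 to 0.34 for Tyk2, and -0.61 to 0.38 for Socs2. The interaction of Socs1 ran from -0.26 to 1.59. The cause of these changes was not tested.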
